A study of Mus musculus with 30 samples.

Results

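The genes described here belong to the apoptosis machinery and to the targets of the tumour suppressor p53. The 10 listed genes are the death receptor gene Fas, the survival genes Bcl2, Bcl2l1 and Mcl1, the BH3-only genes Bcl2l11, Bbc3 and Pmaip1, the effector genes Bax and Bak1, and the cell cycle inhibitor gene Cdkn1a. They were chosen by name, with earlier results of these data known. Of the 10, 8 had a probe set of the array that names only that gene, among 19938 genes measured in all. Bax had no probe set in the annotation used here, and the probe set of Cdkn1a also names another gene, so no value is given for either. Each of the other 8 genes had 1 probe set: 10462603 for Fas, 10357043 for Bcl2, 10488655 for Bcl2l1, 10475866 for Bcl2l11, 10494306 for Mcl1, 10449303 for Bak1, 10550290 for Bbc3 and 10456357 for Pmaip1.

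Levels were read from total RNA of spleen and lymph node on Affymetrix Mouse Gene 1.0 ST arrays, with 1 array per tissue and mouse and 30 arrays from 15 mice. The groups in each tissue were 3 FVB/N mice (the background strain, without transgene), 6 asymptomatic Tg26 mice and 6 Tg26 mice with lymphoma. Tg26 mice carry an HIV-1 provirus (pNL4-3 with part of gag-pol deleted) that makes no infectious virus. All transgenic mice were heterozygous on the FVB/N background, and the mice were 5 to 12 months old, with no age given per mouse. Per the labels about 15% of Tg26 mice develop lymphoma, and lymphoma in this colony arose in lines crossed from animals with skin lesions. The labels put mice 1 to 3 of every state in batch A and the remaining Tg26 mice, numbers 4 to 6, in batch B, which therefore lacks FVB/N mice. All values are log2 intensities, on which a difference of 1 is a doubling, and levels are compared between groups and never between genes, because each probe set has its own brightness.

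Apoptosis in lymphocytes runs along a pair of routes. In the extrinsic route a death receptor such as Fas binds its ligand at the cell surface and recruits the adaptor FADD and a caspase. In the intrinsic route the balance between survival proteins (BCL2, BCL-XL, MCL1) and BH3-only proteins (BIM, PUMA, NOXA) decides whether BAX and BAK open the outer mitochondrial membrane. The genes Fas, Bbc3, Pmaip1, Bax and Cdkn1a are known targets of p53. Mice without functional Fas accumulate lymphocytes, and the human BCL2 gene was found at a translocation breakpoint in follicular lymphoma.

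Before the results, some arrays carried RNA of other tissues or cells. Lymphoma arrays differed from the others in cell type markers. The 15 measured T cell markers averaged 9.70 to 10.06 in asymptomatic spleens and 6.85 to 7.91 in lymphoma spleens, and 8.85 to 10.73 and 7.05 to 8.20 in the nodes. The 10 B cell precursor markers averaged at most 7.79 on any FVB/N or asymptomatic array, and 9.59 to 10.20 in lymphoma spleens and 9.94 to 10.37 in lymphoma nodes. The 14 proliferation genes averaged 7.80 to 8.60 in asymptomatic spleens and 9.36 to 10.62 in lymphoma spleens, and 7.89 to 8.57 and 9.88 to 10.53 in the nodes. The 9 mature B cell markers averaged 10.76 to 11.24 in asymptomatic spleens and 8.66 to 10.23 in lymphoma spleens, without overlap, and 9.57 to 10.84 and 8.88 to 9.78 in the nodes. Vessel and stroma markers (12 genes) averaged 7.80 to 9.25 in asymptomatic nodes and 6.36 to 7.33 in lymphoma nodes. FVB/N nodes 2 and 3 had salivary gland markers at 10.97 and 9.23, and asymptomatic nodes 2 and 3 had them at 8.26 and 9.20. Lymphoma node 5 had them at 7.15, and the other nodes were at most at 5.85. Asymptomatic nodes 5 and 6 had exocrine pancreas markers at 12.22 and 13.47. Among the spleens these markers stood at 7.68, 8.80 and 6.53 in asymptomatic mice 4 to 6, against 6.16 to 6.21 in asymptomatic mice 1 to 3, and at 6.99 in lymphoma mouse 1. Erythroid markers (6 genes) averaged 9.64 in asymptomatic node 6, against 6.23 to 6.71 in the other asymptomatic nodes. The spleen array of lymphoma mouse 4 has the disease status code of the FVB/N arrays. Its title and its description say lymphoma, so it was kept as lymphoma, and its B cell precursor markers averaged 9.59.

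The comparison of lymphoma with asymptomatic Tg26 mice asks which of these genes differ in tissue with tumour. In spleen, 3 of the 8 measured genes changed. Fas and Bcl2 fell, by 1.48 and 1.05 on the log2 scale, and Bak1 rose by 0.47. In lymph node, 4 of the 8 changed: Fas, Bcl2 and Mcl1 fell, by 1.84, 1.65 and 0.44, and Bak1 rose by 0.65. Bcl2l1, Bcl2l11, Bbc3 and Pmaip1 were not called in either tissue. The call rests on the limma fit over all genes, with a Benjamini-Hochberg adjusted p under 0.05. By that rule 15.8% of all genes were called in spleen (8.58% higher, 7.25% lower) and 24.1% in lymph node (11.6% higher, 12.5% lower), against 37.5% and 50% of these 8 genes. The 8 genes were chosen with earlier results of these data known, so these shares are no test of the genes as a set. The median fitted difference of the 8 genes was 0.05 in spleen and 0.03 in lymph node, beside -0.03 and -0.02 over all genes tested. In bulk tissue such as this, fewer cells of a type and less RNA per cell cannot be told apart.

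**Figure D1:**
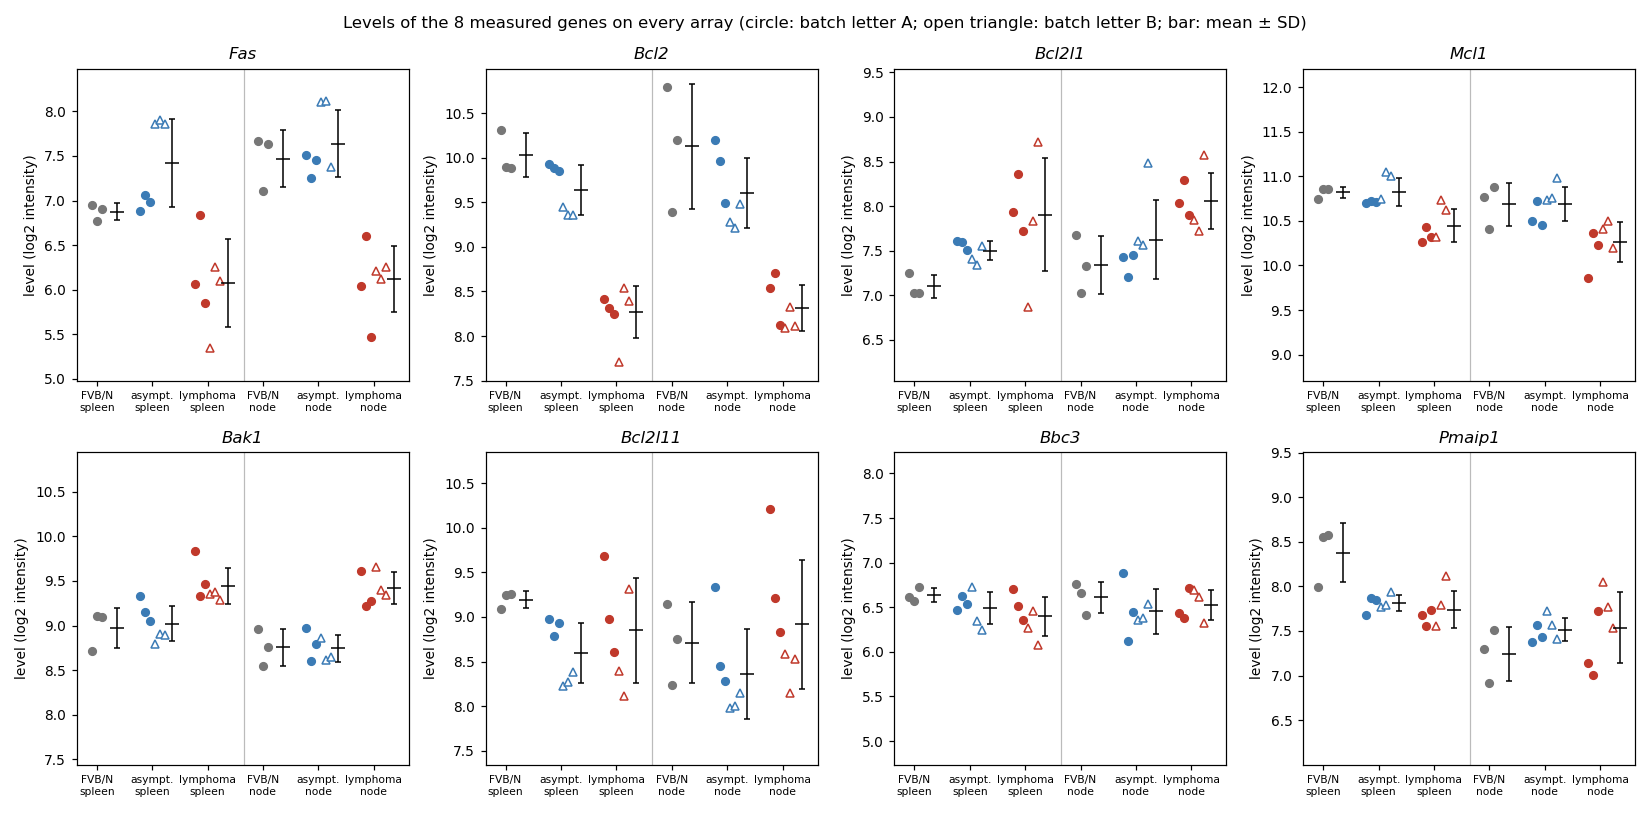
Log2 level of each of the 8 measured genes (vertical axis, log2 intensity) on every array, by group (horizontal axis), with filled circles for batch A, open triangles for batch B and black bars for mean ± SD; every panel spans the same number of log2 units. The lymphoma groups are the lowest for Fas and Bcl2 in both tissues and the highest for Bak1, while lymphoma overlaps asymptomatic for Bcl2l11 and Bbc3 in both tissues.

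Promoter sequences are shown for the 3 genes called in both tissues, Fas and Bcl2 (both lower) and Bak1 (higher), to set the stretch before the start of each beside its pattern. Each is the 250 bases before the RefSeq start in GRCm38.p6, written from 5′ to 3′ on the gene's strand: Fas at chr19:34290409-34290658 on the plus strand, Bcl2 at chr1:106714291-106714540 on the minus strand and Bak1 at chr17:27028628-27028877 on the minus strand. Capitals mark matches, on either strand, to any of 7 motifs: the p53 half-site, the NF-kB site, the FoxO site (GTAAACA), the CRE (TGACGTCA), the E-box (CACGTG), the GC box (GGGCGG) and the ETS site (CCGGAA).
Fas: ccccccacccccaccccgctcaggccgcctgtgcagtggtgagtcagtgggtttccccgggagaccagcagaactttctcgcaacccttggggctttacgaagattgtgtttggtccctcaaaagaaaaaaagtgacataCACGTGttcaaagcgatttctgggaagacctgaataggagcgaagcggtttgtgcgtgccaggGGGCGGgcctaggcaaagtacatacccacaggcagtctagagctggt
Bcl2: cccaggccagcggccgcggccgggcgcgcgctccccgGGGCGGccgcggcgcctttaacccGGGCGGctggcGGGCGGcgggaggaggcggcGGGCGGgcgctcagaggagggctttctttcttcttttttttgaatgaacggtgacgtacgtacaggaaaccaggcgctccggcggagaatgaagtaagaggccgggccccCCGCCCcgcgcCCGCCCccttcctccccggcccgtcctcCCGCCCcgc
Bak1: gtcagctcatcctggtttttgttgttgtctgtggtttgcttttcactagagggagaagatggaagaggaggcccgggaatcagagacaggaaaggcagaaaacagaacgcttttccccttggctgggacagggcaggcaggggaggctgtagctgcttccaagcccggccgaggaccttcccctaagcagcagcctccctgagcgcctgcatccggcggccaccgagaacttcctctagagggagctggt
The Fas window holds 1 E-box and 1 GC box. The Bcl2 window, with 74.8% G and C, holds 7 GC boxes, whereas the Bak1 window, with 58.4%, holds no match to any of the 7 motifs. An E-box occurs in 6.02% and a GC box in 32.7% of 32851 such windows of the mouse genome. Of the 10 listed genes, 9 had a window. A p53 half-site, present in 7.13% of all windows, matched once before Bax and at 2 places before the upstream start of Cdkn1a. These matches describe letters and are not evidence of binding.

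Fas, the death receptor gene, was lower in lymphoma than in asymptomatic tissue. In spleen its level was 6.95, 6.78 and 6.91 in the FVB/N mice. In asymptomatic spleens it ranged from 6.88 to 7.90 with a median of 7.46, and in lymphoma spleens from 5.35 to 6.83 with a median of 6.08. No lymphoma spleen reached the lowest asymptomatic spleen. The fitted difference was -1.48 (SE 0.14, 95% interval -1.77 to -1.19, adjusted p = 7.98e-08), or 2.79-fold lower.

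The asymptomatic spleens fell into separate levels of Fas by batch: mice 1 to 3 stood at 6.88, 7.06 and 6.99, and mice 4 to 6 at 7.86, 7.90 and 7.86. These last 3 spleens are those with the higher pancreas markers given above. They also had lower averages of other lists. Proliferation genes stood at 7.86, 7.94 and 7.80, against 8.60, 8.56 and 8.60 in mice 1 to 3. T cell markers stood at 9.70 to 9.84, against 9.97 to 10.06. The part of any of these lists in the Fas levels was not tested. The measured difference from lymphoma was -0.73 within batch A and -1.97 within batch B. With the arrays of batch A alone the adjusted p was 0.0811. Leaving out lymphoma mouse 3 or lymphoma mouse 5 gave -0.98 and -0.92, and the call held in both.

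In lymph node, Fas stood at 7.67, 7.11 and 7.63 in the FVB/N mice. It ranged from 7.26 to 8.11 (median 7.48) in asymptomatic nodes and from 5.47 to 6.60 (median 6.17) in lymphoma nodes. The lymphoma nodes lay below every asymptomatic and FVB/N node. The fitted difference from asymptomatic was -1.84 (SE 0.15, interval -2.16 to -1.52, adjusted p = 8.03e-09), or 3.58-fold lower, and the measured difference was -1.37 in batch A and -1.67 in batch B. Ordered by mean, the groups ran from lymphoma spleen (6.08 ± 0.49, SD, n = 6) and lymphoma node (6.12 ± 0.37, n = 6) to FVB/N spleen (6.88 ± 0.09, n = 3). Asymptomatic spleen (7.42 ± 0.49, n = 6), FVB/N node (7.47 ± 0.32, n = 3) and asymptomatic node (7.64 ± 0.38, n = 6) followed. Neighbours in that order differed by more than the larger SD only between lymphoma node and FVB/N spleen and between FVB/N and asymptomatic spleen, and the ranges of the latter pair overlapped.

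Between lymphoma and asymptomatic mice, the lower Fas level went with lower T cell markers. Of the 15 measured, 13 fell in spleen and 13 in lymph node. Il7r, which B cell precursors also express, rose by 1.01 in spleen. B cell precursor markers rose on the same arrays, 9 of 10 in spleen and 8 of 10 in lymph node. Of the 9 mature B cell markers, 4 fell and none rose in spleen, and 4 fell and 3 rose in lymph node. Among the asymptomatic spleens the order was reversed: mice 4 to 6, with the higher Fas levels, had the lower T cell markers. The part of these markers in the results for Fas and, below, Bcl2 and Fcmr was not tested. No marker can be at 0 on this scale.

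Bcl2, the founding survival gene of its family, was also lowest in lymphoma. In FVB/N spleens its level was 10.32, 9.89 and 9.89. It ranged from 9.35 to 9.93 (median 9.65) in asymptomatic spleens and from 7.71 to 8.54 (median 8.35) in lymphoma spleens. The groups with and without lymphoma did not overlap. The fitted difference from asymptomatic was -1.05 (SE 0.15, interval -1.36 to -0.74, adjusted p = 2.39e-05), or 2.07-fold lower. The measured difference was larger, at -1.37, with -1.56 in batch A and -1.17 in batch B.

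In lymph node, the 3 FVB/N mice had Bcl2 levels of 10.79, 9.39 and 10.20. The range was 9.22 to 10.20 (median 9.48) in asymptomatic nodes and 8.09 to 8.70 (median 8.22) in lymphoma nodes, again without overlap. The fitted difference was -1.65 (SE 0.17, interval -1.99 to -1.30, adjusted p = 1.24e-07), or 3.13-fold lower, and the measured one was -1.29. The gap of 1.29 between the highest lymphoma group mean, 8.31 ± 0.26 in node, and the next, 9.60 ± 0.39 in asymptomatic node, exceeded the larger SD. Bcl2 was called lower under each of the 28 other settings in both tissues. Whether the fall differed between tissues was tested directly: the fitted difference of differences was -0.60 (SE 0.21, adjusted p = 0.208), while the measured one was 0.08. For none of the 8 genes was this difference between tissues called, where 0.572% of all genes were; 1 of the 8, Bcl2, had an unadjusted p under 0.05.

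Bcl2l1 encodes BCL-XL, the survival protein closest in role to BCL2. Its level was 7.25, 7.03 and 7.03 in FVB/N spleens. The asymptomatic spleens ranged from 7.34 to 7.61 (median 7.53) and the lymphoma spleens from 6.87 to 8.72 (median 7.88). Lymphoma spleens thus spread on both sides of the other groups, with mouse 4 the lowest array and mouse 6 the highest of all spleens. The fitted difference from asymptomatic was 0.42 (SE 0.22, interval -0.04 to 0.88, adjusted p = 0.226) in spleen and 0.42 (SE 0.25, interval -0.08 to 0.93, adjusted p = 0.241) in lymph node. These did not pass the test, but the fit was not stable for this gene: it was called higher under 7 of 28 other settings in spleen and under 11 of 28 in lymph node. Leaving out 1 mouse was enough for the call. In spleen it was 0.93 (adjusted p = 0.000736) without lymphoma mouse 3, 0.60 (adjusted p = 0.0153) without mouse 4 and 0.84 (adjusted p = 6.25e-05) without mouse 5. In lymph node it was 0.80, 0.81 and 0.61 without lymphoma mouse 3, 5 or 6 and 0.64 without asymptomatic mouse 6, with adjusted p from 0.000897 to 0.0368. Without the 4 nodes that carried salivary gland markers it was 1.22 in spleen and 1.24 in lymph node. In lymph node the FVB/N mice stood at 7.67, 7.02 and 7.33, the asymptomatic mice between 7.21 and 8.49 (median 7.51) and the lymphoma mice between 7.72 and 8.57 (median 7.96).

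Mcl1, a survival gene whose protein is short-lived, fell in lymph node only by the threshold, and the difference between the tissues was not called (adjusted p = 0.446). In lymph node its level was 10.77, 10.41 and 10.87 in FVB/N mice. It ranged from 10.46 to 10.98 (median 10.73) in asymptomatic nodes and from 9.86 to 10.50 (median 10.30) in lymphoma nodes. The asymptomatic and lymphoma nodes overlapped slightly. The fitted difference was -0.44 (SE 0.11, interval -0.66 to -0.22, adjusted p = 0.00319). It lost the call without lymphoma mouse 1 (-0.26, adjusted p = 0.191), without the 4 nodes that carried salivary gland markers, a setting chosen after the data were seen (-0.29, adjusted p = 0.174), with arrays centred on their median (-0.29, adjusted p = 0.0544) and in batch A alone (-0.41, adjusted p = 0.0562).

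In spleen, Mcl1 stood at 10.75, 10.86 and 10.86 in FVB/N mice, between 10.70 and 11.05 (median 10.73) in asymptomatic mice and between 10.26 and 10.73 (median 10.38) in lymphoma mice. The fitted difference there was -0.18 (SE 0.10, adjusted p = 0.233), and the measured difference was -0.38, alike in batch A (-0.38) and batch B (-0.37). It was called lower under 9 of 28 other settings, among them the fit without surrogate variables (-0.38, adjusted p = 0.0219). Leaving out 1 mouse also brought the call: the value was -0.37 (adjusted p = 0.0152) without asymptomatic mouse 4, -0.29 without asymptomatic mouse 6, and -0.26, -0.28 and -0.31 without lymphoma mouse 2, 4 or 5.

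Bak1, which encodes the pore-forming effector BAK, was the 1 measured member that rose. In FVB/N spleens its level was 8.72, 9.10 and 9.10. It ranged from 8.79 to 9.33 (median 8.98) in asymptomatic spleens and from 9.28 to 9.83 (median 9.37) in lymphoma spleens. Asymptomatic mouse 1, at 9.33, lay within the lymphoma range, and every other asymptomatic spleen lay below it. The fitted difference was 0.47 (SE 0.10, interval 0.25 to 0.68, adjusted p = 0.00259), or 1.38-fold higher. The call was lost in batch A alone (0.37, adjusted p = 0.183) and without the 4 nodes that carried salivary gland markers (0.35, adjusted p = 0.101).

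In lymph node, Bak1 stood at 8.96, 8.55 and 8.76 in FVB/N mice, between 8.60 and 8.97 (median 8.72) in asymptomatic mice and between 9.22 and 9.65 (median 9.37) in lymphoma mice. All 6 lymphoma nodes lay above all 9 others. The fitted difference from asymptomatic was 0.65 (SE 0.12, interval 0.41 to 0.88, adjusted p = 0.000186), or 1.57-fold higher, and the measured difference was 0.58 in batch A and 0.76 in batch B. It was called under each of 28 other settings. Proliferation genes were higher on the same arrays, with 13 of 14 called in spleen and 14 of 14 in lymph node. Their part in the Bak1 result was not tested.

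The 3 BH3-only genes were not called between lymphoma and asymptomatic mice in either tissue, nor under any of the 28 other settings. Bcl2l11, which encodes BIM, ranged from 8.12 to 9.69 (median 8.79) in lymphoma spleens and from 8.22 to 8.97 (median 8.59) in asymptomatic spleens. In lymph node the ranges were 8.14 to 10.21 (median 8.71) and 7.98 to 9.33 (median 8.22). Lymphoma mouse 1 had the highest Bcl2l11 level of its group in both tissues, and asymptomatic mouse 1 did so too. The fitted differences were 0.06 (SE 0.23, interval -0.41 to 0.53) in spleen and 0.20 (SE 0.25, interval -0.32 to 0.73) in lymph node, so a change of up to 0.73 lies within the interval.

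Bbc3, which encodes PUMA, had the narrowest range of group means of the 8 genes. Its group means lay between 6.40 ± 0.21 (lymphoma spleen) and 6.64 ± 0.08 (FVB/N spleen). No pair of neighbours in the order of its group means differed by more than the larger SD, which was also so for Bcl2l1, Bcl2l11 and Mcl1. The fitted differences between lymphoma and asymptomatic were 0.11 (SE 0.14, interval -0.18 to 0.39) in spleen and 0.12 (SE 0.15, interval -0.19 to 0.44) in lymph node.

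Pmaip1, which encodes NOXA, had its highest group mean in FVB/N spleen and its lowest in FVB/N node. In FVB/N spleens its level was 7.99, 8.56 and 8.58, and in FVB/N nodes 7.30, 6.92 and 7.51. The asymptomatic mice ranged from 7.67 to 7.93 (median 7.82) in spleen and from 7.38 to 7.72 (median 7.50) in node, and the lymphoma mice from 7.55 to 8.11 (median 7.71) and from 7.003 to 8.05 (median 7.63). All FVB/N spleens lay above all asymptomatic spleens, but the highest lymphoma spleen (8.11) lay above the lowest FVB/N spleen (7.99). Within a mouse, the node was lower than the spleen in 3 of 3 FVB/N mice and in 6 of 6 asymptomatic mice. The mean of node minus spleen was -1.13 ± 0.48 (SD) in FVB/N mice and -0.30 ± 0.16 in asymptomatic mice. In lymphoma mice it was -0.20 ± 0.43, with the node higher in 1 of 6. The FVB/N values ran from -1.64 to -0.69. Nodes 2 and 3 of the FVB/N and asymptomatic groups carried salivary gland markers, whose part in this was not tested. For lymphoma against asymptomatic the fitted difference was 0.05 (SE 0.17) in spleen and -0.06 (SE 0.19) in lymph node.

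**Figure D2:**
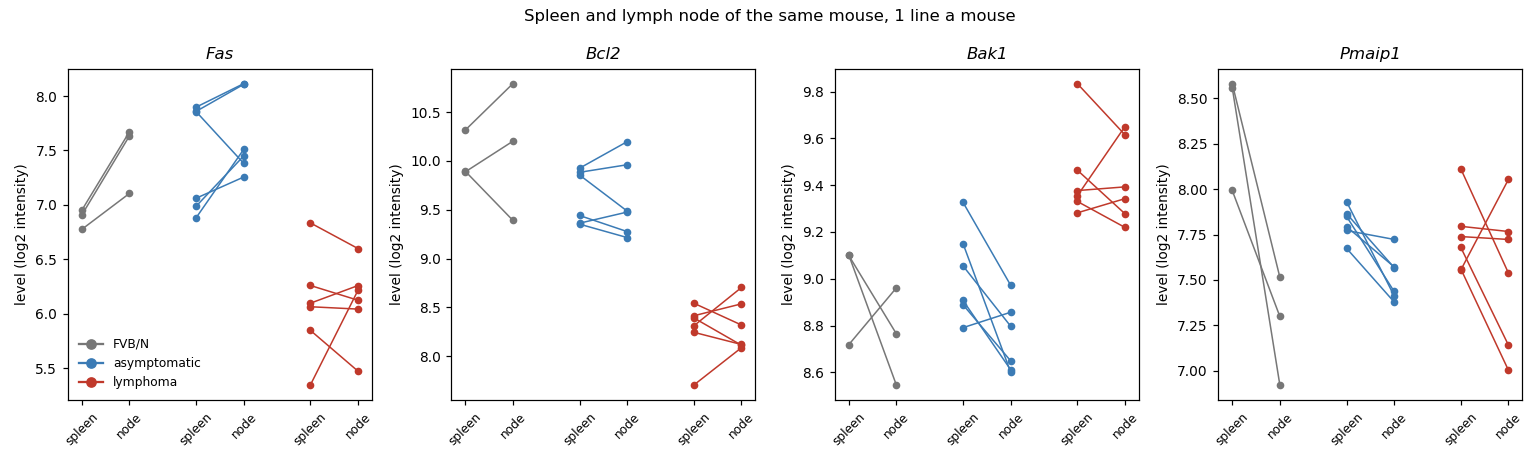
Log2 level (vertical axis, log2 intensity) of Fas, Bcl2, Bak1 and Pmaip1 in spleen and lymph node, with 1 line joining the arrays of each mouse and grey, blue and red for FVB/N, asymptomatic and lymphoma mice. Fas was higher in the node of 3 of 3 FVB/N mice, by 0.59 on average, and Pmaip1 was lower in the node of 3 of 3 FVB/N and 6 of 6 asymptomatic mice; the lymphoma lines run in both directions for all 4 genes.

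Asymptomatic Tg26 mice were compared with FVB/N mice to see what accompanies the transgene without tumour. None of the 8 genes was called by limma in either tissue, where 0.617% of all genes were called in spleen and 1.94% in lymph node. At an unadjusted p under 0.05 there was 1 in spleen and 0 in lymph node. That 1 was Pmaip1, whose fitted difference in spleen was -0.67 (SE 0.17, interval -1.03 to -0.32, adjusted p = 0.0799), and -0.58 in batch A alone as measured. Without FVB/N mouse 1, the lowest of the 3 FVB/N spleens, it became -0.84 with an adjusted p of 0.0153. For Bcl2l11 every FVB/N spleen (9.09 to 9.26) also lay above every asymptomatic spleen (8.22 to 8.97), with a measured difference of -0.60, -0.30 within batch A, and a fitted one of -0.18 (SE 0.23, adjusted p = 0.993). In lymph node the Pmaip1 difference was 0.28 (SE 0.18, adjusted p = 0.485). For Fas the measured difference in spleen was 0.55 over all mice but 0.10 within batch A, the batch that holds FVB/N mice, and the fitted one was 0.20 (SE 0.14, adjusted p = 0.889). The Bcl2 difference was -0.18 (SE 0.15) in spleen and -0.26 (SE 0.16) in lymph node. The Bak1 difference was 0.17 (SE 0.10) and 0.08 (SE 0.11).

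Lymphoma mice were also compared with FVB/N mice. This comparison shares its lymphoma arrays with the comparison above and its FVB/N arrays with the asymptomatic comparison, so it is no separate evidence. In spleen 3 of 8 genes were called, where 12.3% of all genes were (7.1% higher, 5.25% lower): Fas (-1.28, SE 0.17), Bcl2 (-1.22, SE 0.18) and Bak1 (0.64, SE 0.13). In lymph node 4 of 8 were called, where 16.6% of all genes were (8.59% higher, 7.98% lower): Fas (-1.85, SE 0.18), Bcl2 (-1.90, SE 0.20), Mcl1 (-0.52, SE 0.13) and Bak1 (0.73, SE 0.14). Below the threshold in spleen, Bcl2l1 differed by 0.76 (SE 0.27, adjusted p = 0.0708), Mcl1 by -0.33 (SE 0.12, adjusted p = 0.0735) and Pmaip1 by -0.63 (SE 0.21, adjusted p = 0.0566). Each was called under many of the 27 other settings: Bcl2l1 under 19, Mcl1 under 12 and Pmaip1 under 15. Without lymphoma mouse 3 or 5 the Bcl2l1 value was 1.27 and 1.23 in spleen, and 0.96 and 1.09 in lymph node, where it was 0.46 with all mice. The Fas difference in spleen lost its call without surrogate variables (-0.80, adjusted p = 0.0509) and in batch A alone (-0.63, adjusted p = 0.127). Without lymphoma mouse 3 or 5 it was -0.71 in either case, and in lymph node -1.23 and -1.16, with the calls kept. In lymph node the Bak1 call was lost without the 4 salivary-bearing nodes (0.58, adjusted p = 0.105), and so was that of Mcl1 (-0.41, adjusted p = 0.206). The Mcl1 call was also lost without FVB/N mouse 3 (-0.40, adjusted p = 0.088), without lymphoma mouse 1 (-0.38, adjusted p = 0.126) and with arrays centred on their median (-0.34, adjusted p = 0.103).

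**Figure D3:**
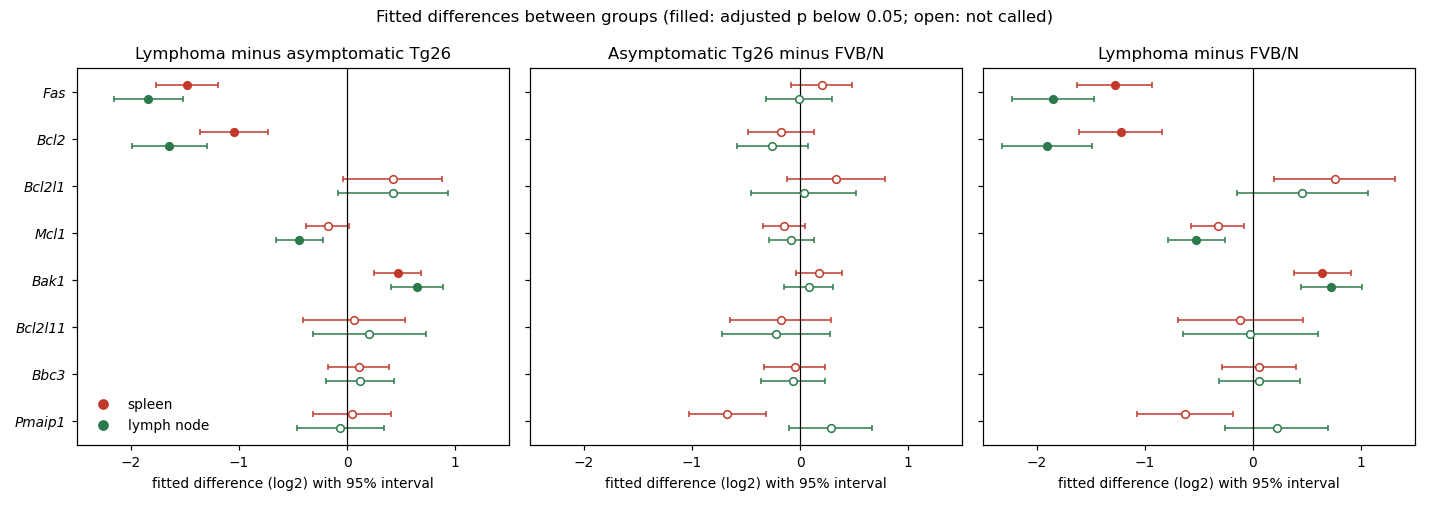
Fitted log2 differences (horizontal axis) of the 8 genes (vertical axis) with 95% intervals in the 3 comparisons, in red for spleen and green for lymph node; filled points passed an adjusted p of 0.05. Fas and Bcl2 lie left of 0 and Bak1 right of 0 in both comparisons with lymphoma, and no point is filled in the comparison of asymptomatic with FVB/N mice.

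The rest of the pathway was described over 7 lists with 90 different genes, of which 81 were measured; Trp53 itself was not measured by a probe set of its own. Of these 81 genes 13 rose and 8 fell in spleen between lymphoma and asymptomatic mice, or 25.9% beside 15.8% of all genes. In lymph node 16 rose and 13 fell, or 35.8% beside 24.1%. Their median fitted difference was 0.02 in spleen and -0.02 in lymph node, beside -0.03 and -0.02 over all genes. The lists were chosen with earlier results of these data known, and no list was tested against other genes. Among 12 measured genes of the death receptor pathway other than Fas, 4 fell and none rose in spleen, and 6 fell and none rose in lymph node (33.3% and 50% of the list; median difference -0.24 and -0.46). Tnfrsf1a, a receptor for TNF, fell by 1.00 (SE 0.20, adjusted p = 0.000734) in spleen and by 1.71 (SE 0.22, adjusted p = 2.55e-06) in lymph node. The spleen call was lost in batch A alone (-0.67, adjusted p = 0.105), and the value was -1.53 in batch B alone. Its level was 8.37 ± 0.16 in asymptomatic and 7.27 ± 0.79 in lymphoma spleens. In the nodes it was 9.01 ± 0.39 and 6.94 ± 0.33. Of the 12 vessel and stroma markers, 8 fell in lymph node and none was called in spleen. Their part in the Tnfrsf1a result was not tested. Fcmr, which encodes an IgM receptor once described as an inhibitor of Fas signalling, fell by 1.38 (adjusted p = 6.55e-05) and 1.18 (adjusted p = 0.000705). Its measured differences were far larger, at -2.62 and -1.98. Its lymph node call was lost in batch B alone (-1.46, adjusted p = 0.0948) and without asymptomatic mouse 1 (-0.82, adjusted p = 0.122), and without lymphoma mouse 5 its differences were -3.23 in spleen and -2.51 in node. The other moves of over 1.5 times on leaving out 1 mouse were all to larger falls: -2.08 and -2.48 in spleen without lymphoma mouse 2 or 3, and -2.49 and -1.83 in node without lymphoma mouse 3 or 4. Cflar, which encodes the caspase-8 inhibitor FLIP, fell by 0.90 (SE 0.18, adjusted p = 0.000543) in lymph node and differed by -0.22 in spleen (adjusted p = 0.408). Traf2, an adaptor of TNF receptors, fell by 0.38 in spleen (adjusted p = 0.0132), a call lost without FVB/N mouse 1 (-0.30, adjusted p = 0.0509), in batch A alone (-0.57, adjusted p = 0.0855) and without the 4 salivary-bearing nodes (-0.29, adjusted p = 0.0923). Ligand and adaptor genes were among the others that fell: Tnfsf10, the TRAIL gene, in both tissues, and Traf2 and Fadd in lymph node. Genes given only to complete a count, here and below, were chosen after their values were seen.

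Genes of the caspases, the apoptosome and the inhibitor of apoptosis (IAP) family moved in both directions. Of 13 measured, 3 rose and 1 fell in spleen, and 5 rose and 2 fell in lymph node (median -0.02 and 0.19). These are 30.8% and 53.8% of the list, beside 15.8% and 24.1% of all genes. Apaf1, the scaffold of the apoptosome, rose by 1.07 (SE 0.13, adjusted p = 2.77e-06) in spleen and by 0.81 (SE 0.14, adjusted p = 0.00017) in lymph node. Its level was 8.17 ± 0.13 in asymptomatic and 9.01 ± 0.27 in lymphoma spleens. Birc5 (survivin), an IAP family gene expressed in dividing cells, rose by 1.47 (SE 0.25, adjusted p = 0.000158) and 1.88 (SE 0.27, adjusted p = 1.81e-05). Casp2 rose by 0.58 (adjusted p = 0.00246) and 0.73 (adjusted p = 0.000454); its spleen call was lost without surrogate variables (0.43, adjusted p = 0.0583) and in batch A alone (0.30, adjusted p = 0.42). Endog fell by 0.37 in spleen. In lymph node Htra2 and Casp6 rose by 0.59 and 0.61, although their measured differences were only 0.13 and 0.04, and the IAP genes Birc2 and Birc3 fell by 0.73 and 0.55. The proliferation genes given above rose on the same arrays, but Birc5 is itself 1 of those 14 genes. The part of the others in the Birc5 result was not tested.

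Among 10 other BH3-only and effector genes, 1 rose in spleen, and 2 rose and 1 fell in lymph node. These are 10% and 30% of the list (median 0.07 and 0.02), close to the 15.8% and 24.1% of all genes, so the count is no result about the list. Bmf, a BH3-only gene, rose in both: its level was 8.21 ± 0.17 in asymptomatic and 9.28 ± 0.55 in lymphoma spleens (fitted difference 0.96, SE 0.14, adjusted p = 3.97e-05). In lymph node it was 7.97 ± 0.17 and 9.24 ± 0.45 (fitted difference 1.43, SE 0.16, adjusted p = 4.49e-07). Bid, which links death receptors to the mitochondrion, rose by 0.91 (SE 0.20, adjusted p = 0.00161) in lymph node. That call was lost under 7 of 28 other settings, among them without lymphoma mouse 5 (0.39, adjusted p = 0.178) and without asymptomatic mouse 4 (0.79, adjusted p = 0.062); without lymphoma mouse 3 it was 0.48. Bcl2l14 fell by 0.38 (adjusted p = 0.0321), a call lost under 9 of 28 settings, among them without asymptomatic mouse 1, 4 or 5, lymphoma mouse 1, or FVB/N mouse 1 or 3. The level of Bcl2l14 was 6.26 ± 0.24 in asymptomatic and 5.84 ± 0.30 in lymphoma nodes. In the spleens, where it was not called, it was 6.25 ± 0.13 and 5.86 ± 0.25. Of the 2 other survival genes measured, neither was called.

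For p53 and its regulators, 14 genes were measured, of which 3 rose in spleen and 2 rose in lymph node, with none falling. These are 21.4% and 14.3% of the list (median 0.03 and 0.14), near or below the 15.8% and 24.1% of all genes, so this count too is no result about the list. Chek1, a checkpoint kinase gene, stood at 6.27 ± 0.38 in asymptomatic and 8.50 ± 0.54 in lymphoma spleens (fitted difference 2.11, SE 0.22, adjusted p = 2.94e-07). In lymph node it stood at 6.17 ± 0.18 and 8.60 ± 0.22 (fitted difference 2.63, SE 0.24, adjusted p = 2.96e-08). Chek2, the other checkpoint kinase gene, rose by 0.77 (adjusted p = 0.00717) and 1.54 (adjusted p = 1.06e-05). Trp63, a p53 family gene, rose by 0.59 (adjusted p = 0.0147) in spleen, but this was called under only 13 of 28 other settings. The value was -0.04 in batch A alone and -0.05 without lymphoma mouse 5. The call was also lost without asymptomatic mouse 4, 5 or 6 (0.43, 0.39 and 0.36) and without lymphoma mouse 2 or 3 (0.34 and 0.33). Mdm2, the gene of the ubiquitin ligase that p53 induces and that degrades p53, stood at 9.28 ± 0.20 in asymptomatic and 9.16 ± 0.11 in lymphoma spleens. In the nodes it stood at 8.95 ± 0.31 and 9.14 ± 0.28. Neither difference was called (0.04 and 0.14, adjusted p = 0.92 and 0.649).

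Of 28 other p53 targets measured, 6 rose and 2 fell in spleen, and 7 rose and 3 fell in lymph node (median 0.10 and -0.02). These are 28.6% and 35.7% of the list, beside 15.8% and 24.1% of all genes. Gtse1 and Ckap2, both genes of the dividing cell, rose by 1.87 (SE 0.23) and 1.68 (SE 0.23) in spleen and by 2.16 (SE 0.26) and 1.96 (SE 0.26) in lymph node, all with an adjusted p of at most 1.36e-05. Ddb2, a DNA damage recognition gene, went the other way. Its level was 8.59 ± 0.17 in asymptomatic and 7.26 ± 0.37 in lymphoma spleens, and 8.08 ± 0.40 and 7.28 ± 0.21 in the nodes. It fell by 1.22 (SE 0.15, adjusted p = 1.86e-06) in lymph node and by 0.98 (SE 0.14, adjusted p = 1.42e-05) in spleen. In lymph node the measured difference was -0.81, and the call was lost in batch A alone (adjusted p = 0.0691). Apaf1, above, belongs to this list as well. The others were Rps27l, Ddit4 and Psrc1 (higher) and Tigar (lower) in spleen, and Rps27l, Pidd1, Psrc1 and Gadd45a (higher) and Phlda3 and Eda2r (lower) in lymph node. Pidd1, a death domain gene, differed by 1.00 in lymph node. Phlda3 ranged from 6.96 to 9.86 in asymptomatic nodes and from 6.86 to 7.09 in lymphoma nodes. Of 15 adipose and muscle markers, 8 fell in that same comparison, and their part in the Phlda3 result was not tested. Thus genes on the p53 target lists moved in both directions.

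Of 6 other inhibitors of cyclin-dependent kinases, 1 rose and 1 fell in each tissue (median 0.06 in spleen and 0.01 in lymph node). That is 33.3% of this short list, beside 15.8% of all genes in spleen and 24.1% in lymph node. Cdkn2c (p18) rose by 0.98 (SE 0.23, adjusted p = 0.00336) in spleen and by 1.24 (SE 0.25, adjusted p = 0.000624) in lymph node; without lymphoma mouse 5 the spleen value was 1.57, and in batch B alone the lymph node call was lost (0.74, adjusted p = 0.171). Cdkn1c (p57) fell by 0.38 in spleen (adjusted p = 0.0492), and the call held under 1 of 28 other settings, the one without asymptomatic mouse 5. Cdkn1b (p27) fell by 0.35 in lymph node (adjusted p = 0.0467), and this call was lost under 19 of 28 settings, among them without asymptomatic mouse 1 (-0.08) and without lymphoma mouse 1 (-0.21). The measured Cdkn1b difference in lymph node was -0.06. In spleen, where Cdkn1b was not called, its level was 9.65 ± 0.16 in asymptomatic and 9.19 ± 0.36 in lymphoma mice.

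**Figure D4:**
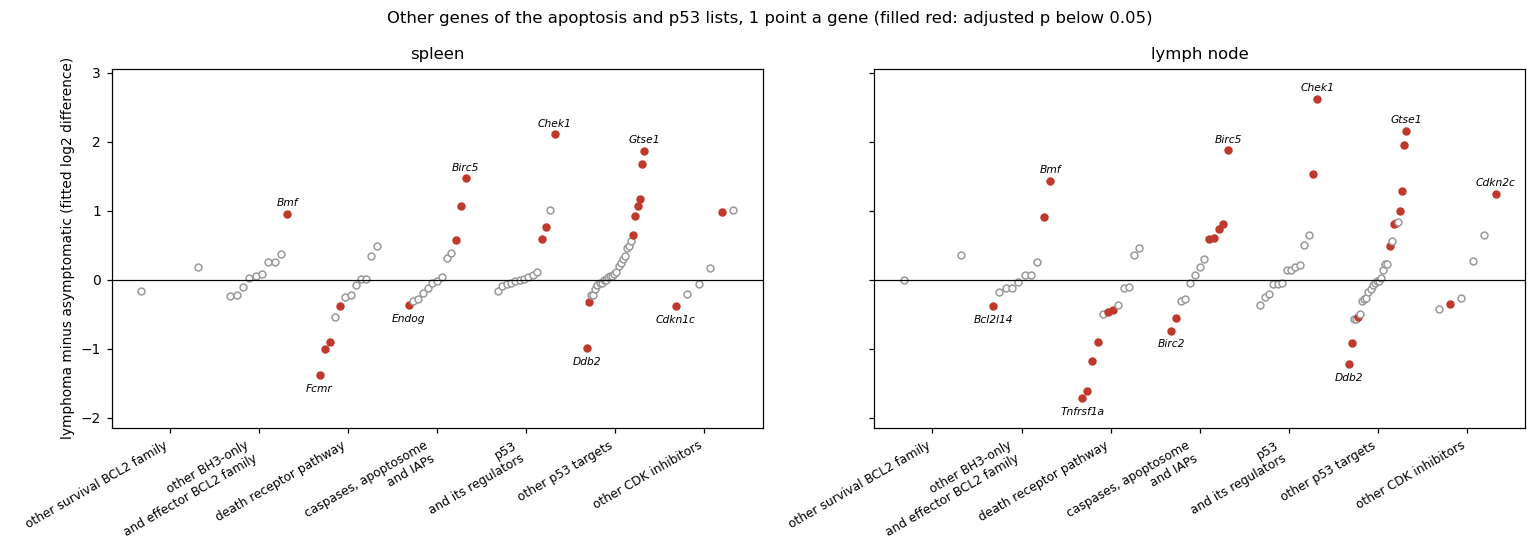
Fitted log2 difference between lymphoma and asymptomatic mice (vertical axis) for each measured gene of the 7 pathway lists (horizontal axis, genes ordered by value within a list), in spleen and lymph node; filled red points passed an adjusted p of 0.05, and the outermost called genes are named. The called genes of the death receptor list all lie below 0, while Chek1, Gtse1 and Birc5 lie highest in their lists.

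Between asymptomatic and FVB/N mice no gene of the 7 lists was called in spleen and 2 of 81 were called in lymph node. That is 2.47%, near the 1.94% of all genes called there, so the count is no result about the lists. The pair were Bnip3, a mitochondrial BH3-like gene (fitted difference 0.89, SE 0.22, adjusted p = 0.0345), and Phlda3, a p53 target that restrains AKT (0.98, SE 0.24, adjusted p = 0.0365). Both spread widely among the asymptomatic nodes, at 9.25 ± 1.24 and 8.27 ± 1.11. Adipose and muscle markers moved with them, averaging 6.34 to 9.69 in asymptomatic nodes and 6.05 to 8.58 in FVB/N nodes, with 7 of 15 higher by the test, and their part in these results was not tested. Without the 4 salivary-bearing nodes the differences were 0.47 (adjusted p = 0.711) and 0.49 (adjusted p = 0.637). With batch and the lists of neighbouring tissues in place of surrogate variables, Bnip3 turned to -0.14. With the replicate block by mouse number both calls were lost (Bnip3 0.65, adjusted p = 0.257, and Phlda3 0.79, adjusted p = 0.166), and with the mouse as a random block that of Phlda3 was lost (adjusted p = 0.0529). Bnip3 was called under 8 and Phlda3 under 9 of 27 other settings. Both calls were also lost without FVB/N mouse 2 or 3, asymptomatic mouse 3 or 4 or lymphoma mouse 1, 2, 3 or 6; the Bnip3 call was lost without asymptomatic mouse 2 or lymphoma mouse 4, and the Phlda3 call without asymptomatic mouse 6.

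For the 3 genes called in both tissues, the genes with the most similar pattern over the 30 arrays were found by the root mean square difference of levels centred on each gene's mean. For Fas, whose SD over the arrays was 0.78, these were Dbp (0.32), which encodes a clock-controlled transcription factor, Ly75 (0.36), which encodes the endocytic receptor DEC-205, and Zkscan7 (0.37). For Bcl2, with an SD of 0.82, they were Flt3l (0.17), which encodes the cytokine FLT3 ligand, Eml5 (0.26) and Abtb2 (0.28). For Bak1, with an SD of 0.34, they were Med24 (0.14), a Mediator subunit gene, 4930524J08Rik (0.16) and Taf5 (0.16), a TFIID subunit gene. The arrays share groups, batches and normalization, so these values describe likeness alone.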

How the data were processed

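Per the series' design text, the authors normalized the arrays with fRMA, a robust multiarray method that uses fixed reference distributions, and the deposited table holds log2 levels per probe set (2.07 to 14.43, array medians 6.67 to 6.89); without scanner files no probe was checked against background, and the number of arrays limits the precision. Of 35556 probe sets with values, 21789 name 1 gene, 1621 several, and 12146 are not listed in the platform annotation; 21698 matched RefSeq (GRCm38.p6) by Entrez identifier for current symbols. Of several probe sets for a gene, the brightest on average stood for it. This gave 19938 genes, and none was filtered out.

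All 30 arrays entered 1 limma fit (version 3.58.1, R 4.3.3) with 6 groups and 6 surrogate variables, as the design text names surrogate variable analysis without their number. The variables were computed in R (5 iterations, groups protected), and their number was set by 20 residual permutations (p under 0.1). The 7 comparisons were tested with Benjamini-Hochberg adjustment over all genes. The fit was also run on simulated data built from its own surrogate variables, with independent noise on every array. Those data held no separate mouse effect, so the run checks the computation and not the design. Levels are means ± SD of deposited values. The mice are separate animals, 3 or 6 a group.

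The members and gene lists were chosen with earlier results of these data known. Named were all members, up to 3 called genes of each pathway list per lymphoma against asymptomatic comparison, up to 2 per asymptomatic against FVB/N comparison, and Trp53 and Mdm2. The 28 alternatives changed the surrogate variables, batch, replicate block, centring, low genes, probe set choice or the arrays used. Promoter windows came from RefSeq tables of GRCm38.p6. Spleen and node of a mouse deviated together in 12 of 15 pairs (correlation over 0.1, median 0.33). The FVB/N pairs were at most at 0.05. Both arrays of a mouse share a batch, which was not removed, and asymptomatic and lymphoma mice with the same number had a median of 0.23.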

Additional observations from a re-analysis of the deposited data

Results flagged for a closer look

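Of 32 sets of 6 arrays (8 genes in 4 groups), 4 held 1 array that stood apart from the other 5. Its gap was over the critical value of 0.625 of the set's range. Chance alone would flag near 1 in 20 sets. The sets share arrays, and 4 of 32 was not tested against that rate. The Bcl2 level of the spleen of lymphoma mouse 4 was 7.71, the lowest of its group, the next being 8.25; this is the array whose status code differs from its title. The Bak1 level of the spleen of lymphoma mouse 1 was 9.83, the highest of its group, the next being 9.46. The Bcl2l1 level of the node of asymptomatic mouse 6 was 8.49, against 7.21 to 7.61 in the other 5. This node also carried exocrine pancreas markers at 13.47. Asymptomatic node 5 had them at 12.22, with Bcl2l1 at 7.56. Erythroid markers averaged 9.64 in node 6, against 6.23 to 6.71 in the other 5. The part of either list in the Bcl2l1 level was not tested. The Bcl2l11 level of the node of asymptomatic mouse 1 was 9.33, against 7.98 to 8.45 in the other 5. Leaving out any 1 of these mice in both tissues ended no call of Bcl2 or Bak1 between lymphoma and asymptomatic mice.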

How the results depend on the processing

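Of the 8 measured genes, 3 were called between lymphoma and asymptomatic spleens, against 5 with 3 surrogate variables, 1 with batch A alone and 3 to 5 on leaving out 1 mouse. In lymph node 4 were called, and 3 to 5 on leaving out 1 mouse. For lymphoma against FVB/N spleens 3 were called, against 5 with batch in place of surrogate variables, 6 with 3 surrogate variables, 6 with batch and the lists of neighbouring tissues, 5 in batch A alone, 6 with the dimmest genes left out, 5 with the mean of probe sets and 3 to 6 on leaving out 1 mouse. In the lymph node that comparison gave 3 to 5. For asymptomatic against FVB/N the count was 0 in both tissues, and 0 to 1 in spleen on leaving out 1 mouse. The cause of these moves was not tested.

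The direction turned for Trp63 in spleen (-0.0359 in batch A alone, -0.0488 to 0.71 on leaving out 1 mouse) and for Bnip3 between asymptomatic and FVB/N nodes (-0.14 with batch and the lists of neighbouring tissues). With the replicate block by mouse number, 4 genes were called in spleen and 5 in lymph node between lymphoma and asymptomatic mice, the one more being Bcl2l1 (0.72, adjusted p = 0.00317, and 0.78, adjusted p = 0.00336, in limma). Asymptomatic and lymphoma mice with the same number also share a batch, which was not removed here. Of 12 such pairs 10 correlated above 0.1, with a lowest value of 0.08. With the mouse as a random replicate block (correlation 0.12) the counts were 3 and 4.

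Over all genes, the counts called by limma ranged over the alternatives from 1678 to 5087 in spleen (3156 as reported) and from 3184 to 6537 in lymph node (4800) for lymphoma against asymptomatic. For lymphoma against FVB/N they ranged from 1605 to 4495 (2462) and from 2061 to 4494 (3304). The count of 4494 was among 14953 genes, with the dimmest genes left out. For asymptomatic against FVB/N the counts ranged from 10 to 252 (123) and from 3 to 782 (386). For the difference between tissues they ranged from 6 to 795 (114). Leaving out the 2 nodes with pancreas markers or the 4 with salivary gland markers was chosen after seeing the data; the latter left 1 FVB/N node, assumed to vary like the other groups. With 3 FVB/N mice, all in batch A, differences between FVB/N and the batch B mice cannot be told apart from batch.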
